A study of Mus musculus with 6 samples.

Results

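The 38 genes described here are induced by type I or type II interferons, and all 38 were found by symbol among the 20649 genes of the count matrix. They were grouped by role into 7 Ifit/Oas genes, 15 further antiviral effectors, 5 nucleic acid sensors, 3 transcription factors and 8 Gbp/Irg GTPase genes. The cells were CD45 positive cells of CT26 tumors, a mouse colon carcinoma line, grown in BALB/c mice from 500000 injected cells. Of 6 tumors, 3 received exoASO-Scramble and 3 exoASO-STAT6, that is, exosomes carrying a control antisense oligonucleotide or one against Stat6, in 3 intratumoral injections with collection 24 h after the last. All tumors came from 1 cell line and 1 mouse strain, and the sort for CD45, a marker of leukocytes, selects against the tumor cells themselves.

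Each cell was read by droplet scRNA-seq, in which a barcode marks the droplet and a unique molecular identifier (UMI) marks each captured transcript. The deposited matrix held raw UMI counts of 9235 barcodes, whose suffixes from 3 to 8 were taken as 6 libraries. No label pairs a suffix with a tumor, so exoASO-STAT6 was not compared with exoASO-Scramble, no p-value was computed, and each library is shown as a library of unknown treatment. Library totals ranged from 11492757 to 33902084 UMIs, and 16 barcode sequences occurred in more than 1 library. Levels are summed UMIs per 1000000 UMIs (CPM), with exact 95% Poisson intervals that cover counting error only and not the spread between tumors.

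Type I interferons (IFN-α and IFN-β) signal through IFNAR, JAK1 and TYK2 to a complex that contains IRF9 and binds the interferon-stimulated response element (ISRE). Type II interferon (IFN-γ), made mostly by T and NK cells, signals through IFNGR, JAK1 and JAK2, and the promoters of its target genes often hold the gamma-activated site (GAS). The Ifit and Oas genes are usually read as type I responses and the Gbp and Irg genes as IFN-γ responses, but many of these genes answer both. In tumors, macrophages are a main site of the IFN-γ response, and Ly6c2 marks monocytes that have recently entered the tissue, while C1qa marks more differentiated macrophages.

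The promoters of 8 members are shown because they hold the motifs bound downstream of the interferon receptors. Each stretch of 80 bases is read 5′ to 3′ on the strand of its gene, lies wholly before the RefSeq transcription start, and comes from the RefSeq promoter table on GRCm38.p6. Capitals mark matches to an ISRE-type motif, GAAANNGAAA or on the other strand TTTCNNTTTC, and to a GAS-type motif, TTCNNNGAA, which reads the same on both strands. The Ifit1 stretch is chr19:34640759-34640838 on the plus strand and the Ifit3 stretch chr19:34583355-34583434 on the plus strand. The Isg15 stretch is chr4:156200846-156200925 on the minus strand and the Rsad2 stretch chr12:26456528-26456607 on the minus strand. Gbp2 is read at chr3:142620569-142620648, Gbp7 at chr3:142530221-142530300, Igtp at chr11:58199476-58199555 and Irf1 at chr11:53769888-53769967, all on the plus strand.
Ifit1: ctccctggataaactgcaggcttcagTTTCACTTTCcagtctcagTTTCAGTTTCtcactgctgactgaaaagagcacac
Ifit3: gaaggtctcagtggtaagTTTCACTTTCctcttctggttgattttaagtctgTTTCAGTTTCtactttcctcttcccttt
Isg15: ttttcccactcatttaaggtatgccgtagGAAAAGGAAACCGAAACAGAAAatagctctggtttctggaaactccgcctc
Rsad2: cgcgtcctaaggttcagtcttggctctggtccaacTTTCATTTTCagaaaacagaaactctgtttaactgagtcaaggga
Gbp2: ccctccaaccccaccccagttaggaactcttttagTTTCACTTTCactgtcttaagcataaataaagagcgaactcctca
Gbp7: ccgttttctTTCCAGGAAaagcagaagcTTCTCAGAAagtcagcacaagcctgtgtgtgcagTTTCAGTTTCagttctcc
Igtp: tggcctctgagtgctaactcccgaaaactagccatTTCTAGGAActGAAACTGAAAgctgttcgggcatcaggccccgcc
Irf1: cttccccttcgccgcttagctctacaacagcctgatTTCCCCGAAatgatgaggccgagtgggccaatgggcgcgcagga
The 2 Ifit promoters each held 2 ISRE-type matches, at 104 to 76 bases before the start in Ifit1 and at 156 to 113 in Ifit3. In Isg15, 3 matches overlapped between 78 and 57 bases before the start. Gbp2 held 1 ISRE-type match at 59 to 50 bases, whereas Igtp and Gbp7 held both kinds of motif and Irf1 a GAS-type match alone, at 90 to 82 bases.

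The promoter table held 30 of the 38 members in 37 windows of 250 bases before to 50 after the start, all but Oas2, Usp18, Rtp4, Parp14, Dhx58, Zbp1, Ifi204 and Iigp1. ISRE-type matches lay in 18 of these windows (48.6%), against 3.44% of all 32851 windows, and GAS-type matches in 8 (21.6%), against 8.30%. By gene, 3 of 6 Ifit/Oas genes and 6 of 7 Gbp/Irg genes had an ISRE-type match, and 1 of 6 and 3 of 7 a GAS-type match, so that these letters did not separate the families. Several members also lie side by side on mm10, with Gbp2, Gbp3, Gbp5 and Gbp7 within chr3:142493978-142638008 and Ifit1, Ifit2 and Ifit3 within chr19:34550694-34650009. Near copies such as Ifit3 and Ifit3b, or the Gbp genes, can share reads, so the split of counts between them is uncertain.

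Barcodes were sorted by a few genes that are not members. Macrophages had at least 3 UMIs of Csf1r and Adgre1 together and none of Cd3e or Ncr1, and the other gates were S100a9 (neutrophil), Flt3 (dendritic), Siglech (plasmacytoid dendritic cell, pDC), Ncr1 (NK), Cd3e (T) and Cd79a (B). Exactly 1 gate was passed by 5405 barcodes, no gate by 3055 and more than 1 by 775, which were left out. By these rules, neutrophil, dendritic, pDC or B barcodes with at least 3 UMIs of Csf1r and Adgre1 stayed only if they held Cd3e or Ncr1. The macrophage gate held 3966 barcodes with a median of 12511 UMIs, and all 7 macrophage markers were detected in it at a summed 14566 CPM, beside 56.6 CPM for 4 NK markers, 16.1 CPM for 6 T cell markers, 69.8 CPM for 4 B cell markers and 38.01 CPM for 6 tumor or stroma markers. Within it, 2065 barcodes were C1qa-only (at least 10 C1qa UMIs per 10000 but fewer than 3 of Ly6c2) and 833 were Ly6c2-only (the reverse). Markers of monocytes summed to 4168 CPM in Ly6c2-only and 583 CPM in C1qa-only macrophages, and macrophage markers to 9681 and 17351 CPM. The macrophage markers include C1qb and C1qc, partners of the C1qa used for the split, so their sum is no independent support for it. The median UMI count was 9590 in Ly6c2-only and 16216 in C1qa-only barcodes, with 3.20% and 4.40% of UMIs from mitochondrial genes, and the part of these differences in the results below was not tested.

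In macrophages the Ifit/Oas genes summed to 386, 322, 342, 1020.4, 402 and 468 CPM in suffixes 3 to 8. The Gbp/Irg genes summed to 1332, 1819, 1419, 2622, 1921 and 1683 CPM in the same order. Suffix 6 was the highest library for both families, and for 37 of the 38 members, the exception being Ifitm3, which restricts virus entry at membranes and was highest in suffix 7. Over all tested genes, suffix 6 was the highest library for 22.3%. Over all libraries, the sums were 483 CPM (95% interval 478 to 489) for Ifit/Oas and 1820.3 CPM for Gbp/Irg. Ifitm3 alone gave 2653 of the 8158 CPM of all members.

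**Figure D1:**
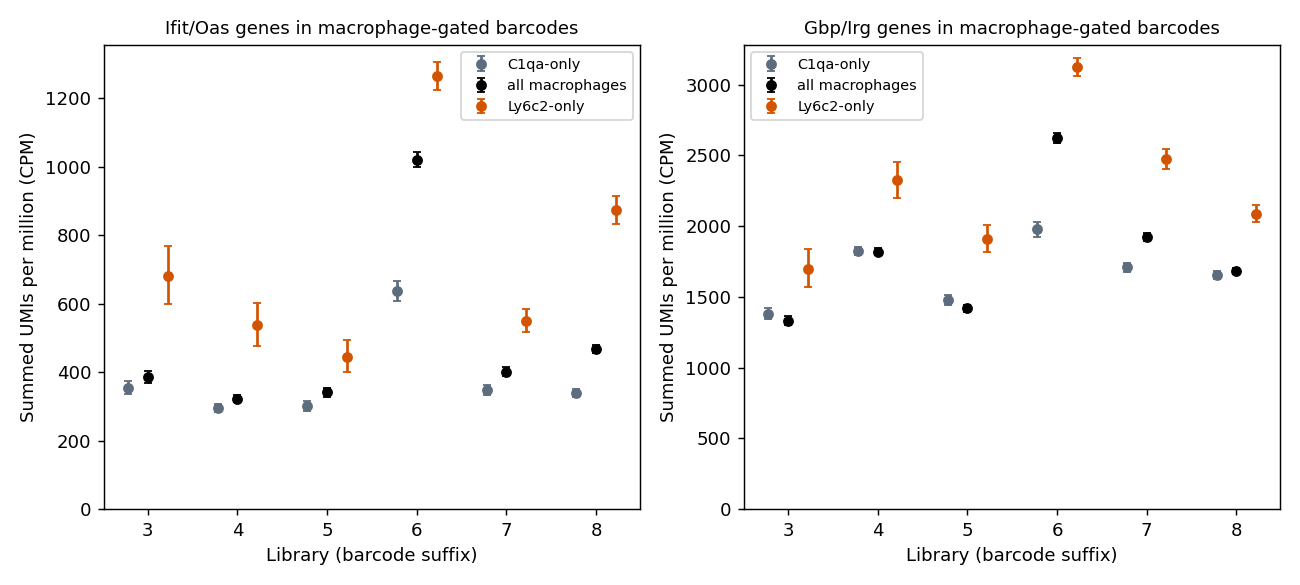
Summed CPM (vertical axis, from 0) of the Ifit/Oas genes (left) and the Gbp/Irg genes (right) in each library (horizontal axis, barcode suffix), for C1qa-only, all and Ly6c2-only macrophages. Bars are exact 95% Poisson intervals, and the Ly6c2-only point lies above the C1qa-only point in every library and both panels, with suffix 6 highest in each.

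Ly6c2-only macrophages had higher levels of most members than C1qa-only macrophages, and the Ifit/Oas genes and effectors were further apart than the Gbp/Irg genes. At least 2-fold higher levels were found for 25 of the 38 members, against 5.08% of all genes tested, and no member was 2-fold lower. The median fold was 2.20 over members and 0.951 over all genes. By family, 6 of 7 Ifit/Oas genes, 13 of 15 effectors, 3 of 5 sensors, 1 of 3 factors and 2 of 8 Gbp/Irg genes passed 2-fold. The summed Ifit/Oas level was 2.49-fold higher (95% interval 2.42 to 2.56, counting error only), and the summed Gbp/Irg level 1.497-fold (1.47 to 1.52).

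Within libraries the Ifit/Oas fold was 1.92, 1.81, 1.47, 1.99, 1.59 and 2.57 in suffixes 3 to 8. The Gbp/Irg fold was 1.23, 1.27, 1.29, 1.58, 1.45 and 1.26. The first was above the second in each library. Because suffix 6 supplied 219 of the 833 Ly6c2-only but 129 of the 2065 C1qa-only barcodes, the pooled folds also carry the difference between libraries. Without suffix 6, singled out after its values were seen, 16 of 38 members passed 2-fold, against 5.07% of all genes, of which 3 were Ifit/Oas genes and 1 a Gbp/Irg gene. The 9 members past 2-fold only with it were Oasl1, Oasl2, Oas2, Herc6, Xaf1, Phf11d, Trim30a, Ddx58 and Ifi47, at 1.49- to 1.99-fold without it. Without it the summed folds were 2.03 for Ifit/Oas and 1.33 for Gbp/Irg. A higher level in Ly6c2-only macrophages in each of the 6 libraries was seen for 33 of 38 members, against 16.6% of all genes, and Ifit3, Oasl1, Usp18, Bst2 and Iigp1 were the exceptions.

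Among the effectors, Isg20, an exonuclease that degrades viral RNA, had the highest fold of all members. Its levels were 71.4, 25.2, 36.0, 97.1, 47.0 and 62.5 CPM in Ly6c2-only macrophages of suffixes 3 to 8, and 8.96, 6.80, 7.10, 24.9, 8.55 and 7.78 CPM in C1qa-only macrophages. The libraries of the 2 groups did not overlap, and the pooled fold was 7.42 (6.47 to 8.52). The share of all genes without such overlap is not given here, so overlap, here and below, only describes each gene. Rsad2 encodes viperin, which blocks the replication of many viruses. It was at 344, 357, 284, 968, 318 and 791 CPM in Ly6c2-only and 108, 118, 116, 384, 124 and 128 CPM in C1qa-only macrophages, 4.67-fold higher over all libraries. The C1qa-only value of suffix 6 lay above the Ly6c2-only values of suffixes 3, 4, 5 and 7, so the libraries overlapped, although Rsad2 was higher in Ly6c2-only macrophages within every library.

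Isg15, a ubiquitin-like protein that is attached to other proteins, was at 489, 418, 358, 945, 455 and 433 CPM against 139, 163, 114, 298, 169 and 94.3 CPM, with no overlap and a fold of 4.12 (3.97 to 4.28). Slfn5 ranged from 315 to 449 CPM in Ly6c2-only and from 104 to 182 CPM in C1qa-only macrophages, 3.35-fold higher and also without overlap. Ifitm3 was at 3061 to 4953 against 1492 to 2532 CPM and 2.06-fold higher. Bst2, or tetherin, which holds budding virus at the cell surface, had the lowest fold of the effectors, 1.26 (1.199 to 1.32), and was higher in 4 of 6 libraries. Usp18, which removes Isg15 from proteins and damps IFNAR signalling, was 1.87-fold higher, in 5 of 6 libraries. The 8 other effectors, Cmpk2, Herc6, Ifi44, Xaf1, Rtp4, Phf11d, Parp14 and Trim30a, were each higher in 6 of 6 libraries, from 2.09-fold for Trim30a to 3.11-fold for Cmpk2.

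Of the Ifit genes, whose proteins bind foreign RNA and hinder its translation, Ifit1 and Ifit2 were 3.36- and 3.11-fold higher in Ly6c2-only macrophages and Ifit3 1.72-fold. Ifit1 was at 74.0, 91.9, 69.5, 205, 56.0 and 137 CPM against 35.8, 33.6, 31.5, 74.6, 40.6 and 37.7 CPM. Ifit3 was higher in 4 of 6 libraries and lower in suffixes 3 and 7. Oas3, which makes the 2′-5′ oligoadenylates that activate RNase L, was 3.38-fold higher (3.11 to 3.67), at 54.6 to 173 against 28.4 to 76.8 CPM. Oasl1, Oasl2 and Oas2 had folds of 2.03, 2.24 and 2.06, and of 1.49, 1.99 and 1.56 without suffix 6.

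The sensors ranged from 1.72-fold for Ifih1, which encodes the RNA sensor MDA5, to 2.58-fold for Zbp1, which senses Z-form nucleic acids. Zbp1 was at 274 to 421 CPM in Ly6c2-only and 104 to 179 CPM in C1qa-only macrophages, without overlap. The DNA sensor gene Ifi204 also showed no overlap, at 328 to 616 against 175 to 255 CPM. Ddx58, which encodes RIG-I, was 2.29-fold higher (1.88-fold without suffix 6) and Dhx58, which encodes its regulator LGP2, 1.81-fold.

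Of the transcription factors, Irf7, the amplifier of IFN-α production, was at 532, 504, 366, 743, 476 and 552 CPM in Ly6c2-only and 222, 227, 191, 373, 240 and 215 CPM in C1qa-only macrophages. It was 2.50-fold higher (2.42 to 2.59), with an overlap only between suffix 5 of the first group and suffix 6 of the second. Irf1, a factor strongly induced by IFN-γ, ranged from 422 to 704 against 243 to 398 CPM and was 1.89-fold higher, without overlap. Irf9, the DNA-binding part of the ISRE complex, was 1.37-fold higher (1.24 to 1.51).

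The Gbp/Irg genes encode GTPases that attack the vacuoles of intracellular microbes, and their folds spread from 0.997 to 2.39. Gbp5, which also promotes inflammasome activity, was at 140, 220, 124, 168, 150 and 172 CPM against 59.3, 94.7, 50.7, 76.8, 57.0 and 60.7 CPM, without overlap and 2.39-fold higher. Ifi47 was 2.003-fold higher (1.89-fold without suffix 6), Gbp2 1.84-fold, Irgm1 1.81-fold, Igtp 1.62-fold, Gbp3 1.51-fold and Gbp7 1.38-fold. Iigp1, an effector of the IRG system, differed from these. It was at 246, 380, 342, 795, 507 and 325 CPM in Ly6c2-only and 419, 565, 489, 526, 553 and 545 CPM in C1qa-only macrophages. Its pooled fold of 0.997 (0.966 to 1.03) combined a lower level in 5 libraries with a higher one in suffix 6, and without that library it was 0.735 (0.703 to 0.768).

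Suffix 6 was then set against the other 5 suffixes, within macrophages and within each state, because it lay apart in the library values. As these same members led to that choice, the counts of members below describe suffix 6 and are no test of it. At least 2-fold higher levels in its macrophages were found for 16 of 38 members, against 1.79% of all genes. These were 6 of 7 Ifit/Oas genes, 9 of 15 effectors, 1 of 3 factors, none of the 5 sensors and none of the 8 Gbp/Irg genes. The summed Ifit/Oas level was 2.61-fold higher (2.55 to 2.68) and the Gbp/Irg level 1.56-fold (1.54 to 1.58). Isg20, Rsad2 and Ifit2 led, at 3.83-, 3.73- and 3.30-fold, and Ifitm3 was last at 1.202-fold. Suffix 6 also had the largest share of Ly6c2-only macrophages, 40.7% against 8.74 to 28.9% in the others, the highest monocyte marker sum (2483 against 703 to 1525 CPM) and the lowest macrophage marker sum (8996 against 12711 to 19023 CPM).

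Within C1qa-only macrophages, 6 of 38 members were at least 2-fold higher in suffix 6, against 0.896% of all genes. Within Ly6c2-only macrophages, 7 of 38 were, against 1.75%. The summed Ifit/Oas folds in these states were 1.96 and 1.91, and the Gbp/Irg folds 1.196 and 1.43. Rsad2 was 3.19-fold higher in C1qa-only and 1.97-fold higher in Ly6c2-only macrophages of suffix 6. Ifitm3 stood at 1.07 and 0.909. Iigp1 was 0.995-fold in C1qa-only but 2.04-fold in Ly6c2-only macrophages, the highest Gbp/Irg fold of the latter. Since each side is a sum over barcodes and the treatment of suffix 6 is not known, tumor, library and treatment cannot be told apart here.

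**Figure D2:**
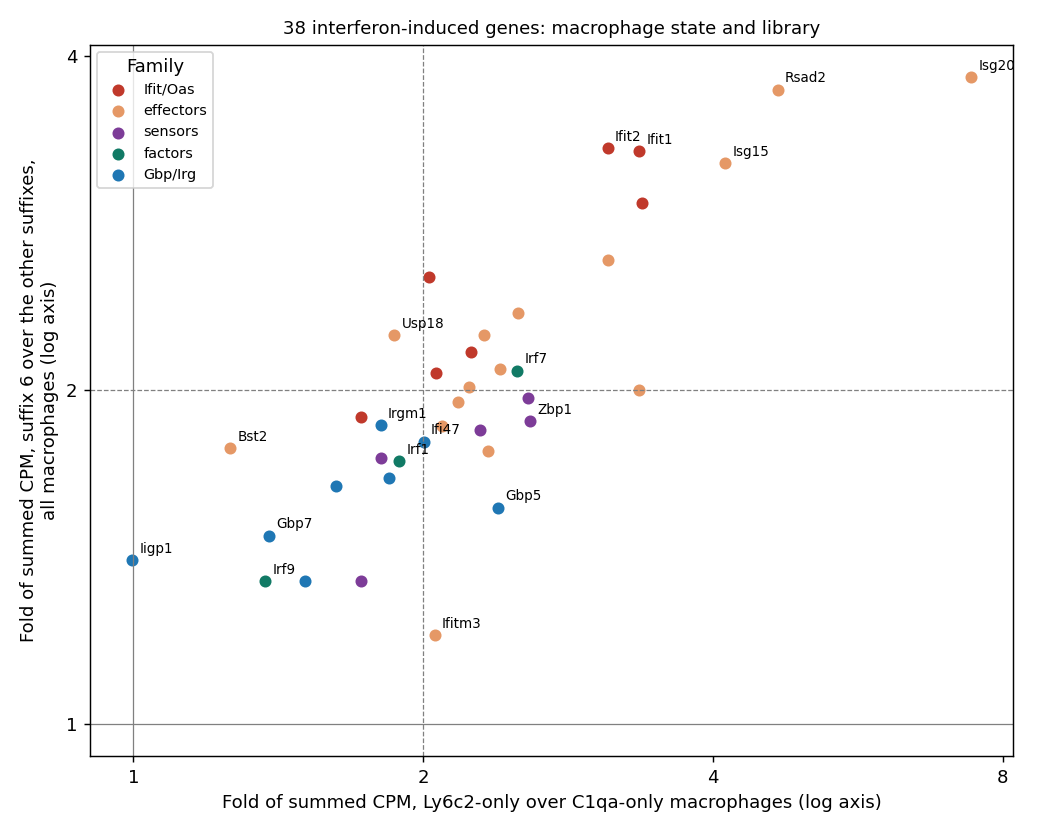
Each point is 1 of the 38 genes, with its fold between Ly6c2-only and C1qa-only macrophages (horizontal, log axis) and its fold between suffix 6 and the other suffixes in all macrophages (vertical, log axis); colours are families, solid lines mark a fold of 1 and dashed lines 2. Isg20, Rsad2, Isg15, Ifit1 and Ifit2 lie far out on both axes, the Gbp/Irg genes below 2 on the vertical axis, and Iigp1 at 0.997 on the horizontal axis. The axes share barcodes of suffix 6.

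Co-variation from cell to cell was then described within libraries, after 3719 macrophage barcodes had been thinned to 5000 UMIs each and 247 shallower ones left out. Genes of 1 family followed each other more than genes of the other. The mean Spearman rho between genes, averaged over 6 libraries, was 0.219 within Ifit/Oas (0.161 to 0.272 by library), 0.245 within Gbp/Irg (0.212 to 0.302) and 0.117 between the families (0.0891 to 0.148). The mean within families exceeded that between them by 0.114, and by 0.0957 to 0.128 in single libraries. The excess was 0.109 in C1qa-only and 0.146 in Ly6c2-only macrophages. The barcodes behind a value share a library and a thinned depth, and the values are a description with no test. The summed families themselves correlated at 0.266 to 0.392 by library, so they were separable but not independent.

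All 8 Gbp/Irg genes correlated better with the summed remainder of their own family than with Ifit/Oas in 6 of 6 libraries, as did 6 of the 7 Ifit/Oas genes with theirs. The weakest was Oas2, at 0.113 with Ifit/Oas and 0.0999 with Gbp/Irg and about 17 CPM in macrophages. The highest own-family values were 0.470 for Gbp7, 0.452 for Ifi47 and 0.451 for Iigp1, and 0.422 for Ifit2. Of the 23 other members, 13 were closer to Ifit/Oas in 6 of 6 libraries, against 3.59% of 7196 genes that are no members, and 20 in at least 5 of 6, against 11.3%. Isg15, Ifi44 and Rsad2 had the highest values, 0.445, 0.442 and 0.420 with Ifit/Oas.

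The transcription factors went different ways. Irf7 had a rho of 0.373 with Ifit/Oas and 0.158 with Gbp/Irg, and Irf1 of 0.0872 and 0.355, each in that order in 6 of 6 libraries. Irf1 was the only one of the 23 genes closer to Gbp/Irg in every library. Irf9 was near 0 with both, at 0.0575 and 0.0293. Zbp1 was equally close to both, at 0.247 and 0.251, and Parp14 nearly so, at 0.288 and 0.270.

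**Figure D3:**
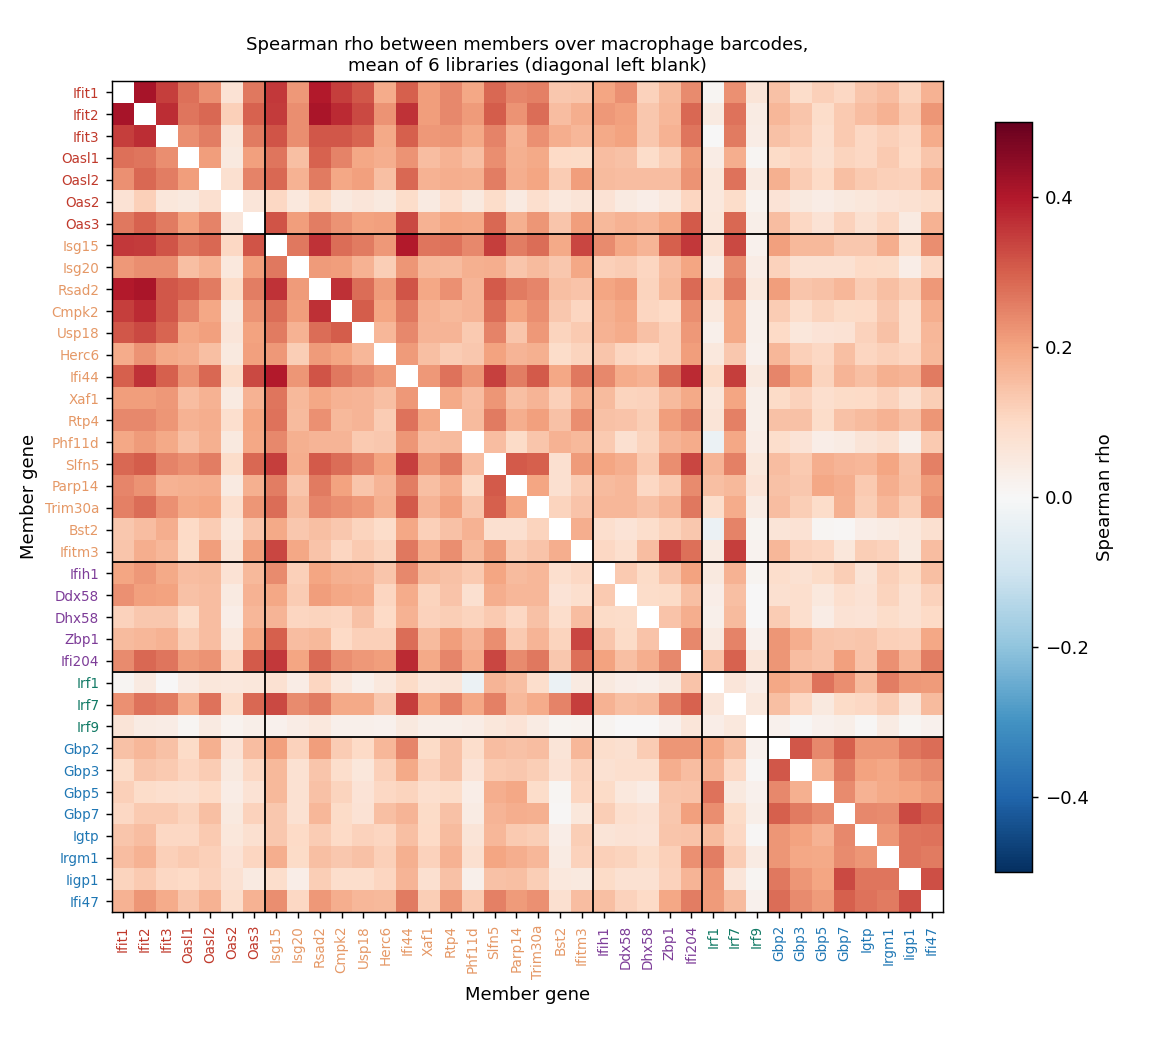
Spearman rho between every pair of the 38 genes over thinned macrophage barcodes, as the mean of 6 libraries (colour scale, red for positive and blue for negative). Both axes list the genes by family and black lines part the families. Pairs among the Ifit genes, Isg15, Rsad2 and Cmpk2 are among the darkest, the Gbp/Irg block is darker than its pairs with the Ifit/Oas genes (mean rho 0.245 against 0.117), and the row of Irf1 is darkest at the Gbp/Irg genes.

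Over 7196 genes outside the 38, detected in 5% or more of these barcodes, those most like the summed Ifit/Oas level were Ifi202b, Rnf213, Ifi209, Plac8 (also in the list of monocyte markers) and Ifi44l, with a mean rho from 0.330 down to 0.290. Among those most like Gbp/Irg were Gbp2b (0.583), Gbp4 (0.532), Samhd1 (0.452) and Cxcl10 (0.377).

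To show how the families met in single cells, barcodes were called high in Ifit/Oas at 3 or more UMIs and in Gbp/Irg at 13 or more, of 5000. Of the 3719 barcodes, 451 were high in both, 595 in Ifit/Oas alone, 575 in Gbp/Irg alone and 2098 in neither. Gbp/Irg was high in 43.1% (exact binomial interval 40.1 to 46.2) of barcodes high in Ifit/Oas and in 21.5% (20.0 to 23.1) of the others. The first share was above the second in each library, from 27.4 against 10.4% in suffix 3 to 59.4 against 35.7% in suffix 6. The intervals take pooled barcodes as independent and do not cover this spread between libraries. Among genes that the classes did not use, Irf7 was at 618 CPM in barcodes high in both and 541 CPM in Ifit/Oas alone, against 235 CPM in Gbp/Irg alone and 212 CPM in neither. Irf1 was at 666 and 628 CPM where Gbp/Irg was high, and at 337 and 289.96 CPM where it was not. Cxcl9, a T cell chemoattractant induced by IFN-γ, was at 864 CPM in both, 581 CPM in Ifit/Oas alone, 1329 CPM in Gbp/Irg alone and 685 CPM in neither. Cxcl10, a related chemoattractant, was at 1489 and 1290 CPM where Gbp/Irg was high and at 495 and 355 CPM elsewhere. C1qa was at 1985 CPM in both, 2661 CPM in Ifit/Oas alone, 3304 CPM in Gbp/Irg alone and 3349 CPM in neither. Ly6c2 was at 649, 355, 270 and 141 CPM in the same order, and was highest in both in each of the 6 libraries.

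These class levels are sums over libraries in unequal shares, since suffix 6 supplied 174 of the 451 barcodes high in both but 144 of the 2098 in neither. Irf7 was higher in Ifit/Oas alone than in Gbp/Irg alone in 6 of 6 libraries, and Irf1, Cxcl9 and Cxcl10 were lower there in 6 of 6. The order of both and Ifit/Oas alone for Irf7 differed between libraries, and without suffix 6, left out after its values were seen, the levels were 487 and 508 CPM. Cxcl9 without suffix 6 was at 1304 CPM in both and 1457 CPM in Gbp/Irg alone, against 668 CPM in Ifit/Oas alone and 689.9 CPM in neither. In suffix 6 itself Cxcl9 was at 283 CPM in both, below the 627 CPM of neither. C1qa without suffix 6 was at 2900 CPM in both, 3014 CPM in Ifit/Oas alone, 3618 CPM in Gbp/Irg alone and 3444 CPM in neither. The order of the last 2 classes for C1qa thus turned, and Gbp/Irg alone lay above neither in 4 of 6 libraries.

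In lymphocytes most members were lower than in macrophages, and a few were not. In NK cells (350 barcodes, median 7114 UMIs), 27 of 38 members were at least 2-fold lower than in macrophages, against 19.9% of all genes, with 7 of 7 Ifit/Oas and 5 of 8 Gbp/Irg genes among them. In T cells (374 barcodes), 23 of 38 were, against 17.9%, with 6 of 7 and 3 of 8. The summed Ifit/Oas level was 128 CPM in NK and 157 CPM in T cells, 26.5 and 32.4% of the macrophage level. The summed Gbp/Irg level was 575 and 896 CPM, or 31.6 and 49.2%. Macrophage markers stood at 5.25 and 6.98% of their macrophage level in the same gates, at 765 and 1017 CPM, with all 7 markers detected, and were highest in suffix 5, at 3933 and 3636 CPM. After thinning, 24.5% of NK barcodes had an Ifit/Oas UMI (30.9% unthinned) against 63.5% of macrophages (80.7% unthinned), and C1qb, a gene NK cells should lack, had a UMI in 16.2% of NK barcodes.

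Single genes departed from the family pattern. Isg20 was 2.14-fold higher in T cells and 1.495-fold higher in NK cells than in macrophages. Ddx58 was at 1.15-fold in NK and 1.13-fold in T cells, and Herc6 at 1.03- and 1.02-fold. Iigp1 had the lowest fold in NK cells, 0.0789, close to the share of macrophage markers there, and Oasl2 the lowest in T cells, 0.147. Igtp was at 0.957-fold in T cells, at 121 against 127 CPM, but at 0.335-fold in NK cells. By library, the NK sum of Ifit/Oas ranged from 47.0 CPM in suffix 4 to 382 CPM in suffix 5, and that of suffix 6 was 201 CPM, next to 202 CPM in suffix 8. The suffix 5 value rests on 52 UMIs in 24 barcodes, in which macrophage markers summed to 3933 CPM. In T cells suffix 6 had 198 CPM and suffix 8 199 CPM, so suffix 6 did not stand above all others there as it did in macrophages. For Gbp/Irg, suffix 6 was the highest in NK cells, at 852 CPM, and second to suffix 5 in T cells, at 1226 against 1392 CPM.

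**Figure D4:**
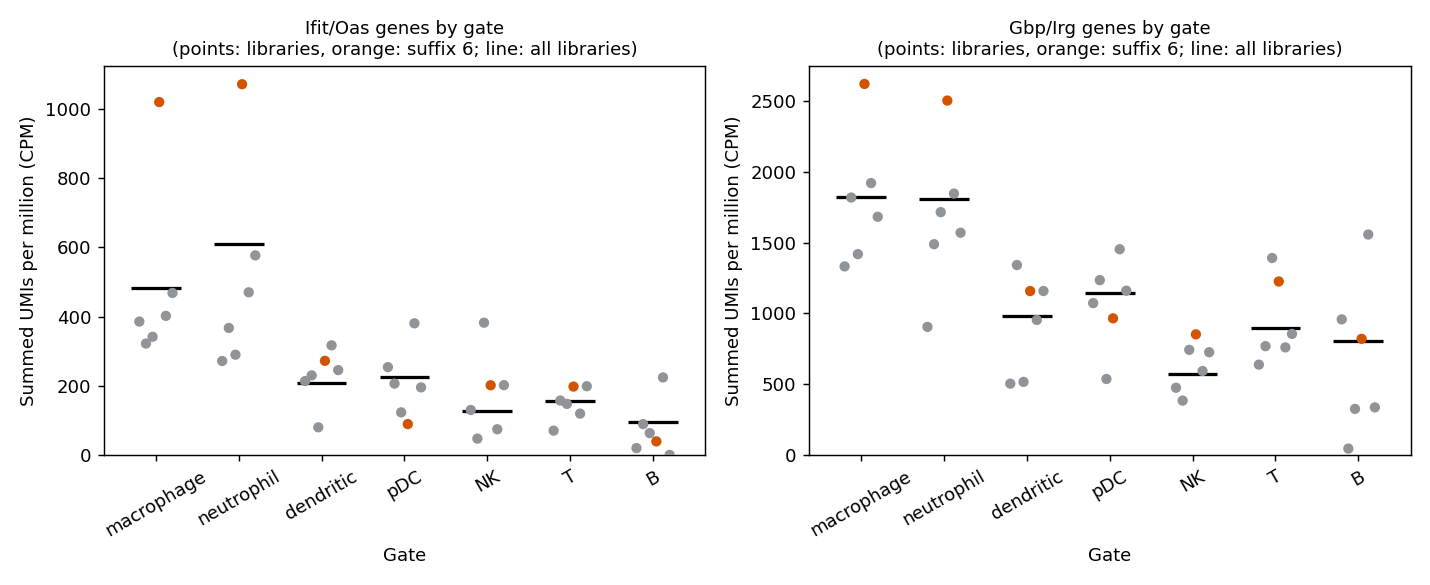
Summed CPM (vertical axis, from 0) of the Ifit/Oas (left) and Gbp/Irg (right) genes in 7 gates (horizontal axis). Points are libraries, suffix 6 in orange, and lines are the value over all libraries. Suffix 6 is the highest point in the macrophage and neutrophil gates in both panels and not for Ifit/Oas in the other gates.

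In the dendritic gate (149 barcodes), 16 of 38 members were at least 2-fold lower than in macrophages, against 7.5% of all genes. In the pDC gate (87 barcodes) 16 of 38 were, against 3.78%. Without suffix 6 these counts were 8, against 6.63%, and 7, against 2.96%. Bst2, a surface marker of pDC in mice, was 3.75-fold higher in pDC than in macrophages, and Irf9 1.26-fold. Barcodes of either gate with at least 3 UMIs of Csf1r and Adgre1 all held Cd3e or Ncr1, so these counts and folds describe mixed gates. The whole pDC gate held 226.5 CPM of Ifit/Oas and 713 CPM of Bst2. Macrophage markers were at 36.7% of their macrophage level in the dendritic gate and 66.3% in the pDC gate. In the 53 pDC barcodes with at most 1 UMI of Csf1r and Adgre1, a limit added after the data were seen, they summed to 1439 CPM, Ifit/Oas to 97.1 CPM, Gbp/Irg to 665 CPM, Irf7 to 406 CPM and Bst2 to 1518 CPM. In 93 dendritic barcodes under the same limit, macrophage markers summed to 1049 CPM, Ifit/Oas to 153 CPM and Gbp/Irg to 605 CPM.

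In the neutrophil gate (436 barcodes, median 22949 UMIs), 2 of 38 members were at least 2-fold higher than in macrophages, against 4.08% of all genes, and none 2-fold lower. These were Isg20, at 2.72-fold, and Rsad2, a count near the share of all genes. Of 1049 barcodes that met the S100a9 minimum, 571 also passed the macrophage gate and were left out. Those kept with at least 3 UMIs of Csf1r and Adgre1 all held Cd3e or Ncr1. The gate thus mixed cell types by its rule, and its levels are not those of neutrophils alone. The gate held all 7 macrophage markers at 10203 CPM, 70.0% of their macrophage level. Its 74 barcodes with at most 1 UMI of Csf1r and Adgre1 had 959 CPM of Ifit/Oas (50.1 to 1584 by library) and 144 CPM of Isg20, with macrophage markers still at 5387 CPM. The B gate held 43 barcodes, with 96.6 CPM of Ifit/Oas and 807 CPM of Gbp/Irg. By library, its macrophage markers summed to between 178 CPM in suffix 4 and 10882 CPM in suffix 7. Suffix 7 supplied 21 of the 31 Ifit/Oas and 146 of the 259 Gbp/Irg UMIs of this gate. The part of macrophage transcripts in its levels was not tested.

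Of both families together, Ifit/Oas gave 21.0% of UMIs in macrophages (15.0 to 28.0% by library), 17.2% in C1qa-only and 25.7% in Ly6c2-only macrophages, 18.2% in NK and 14.9% in T cells. By library the share was 14.0 to 24.4% in C1qa-only and 18.2 to 29.5% in Ly6c2-only macrophages. It was 10.9 to 34.0% in NK and 9.58 to 18.8% in T cells, so all of these ranges overlapped. The 34.0% came from the 24 NK barcodes of suffix 5, and the next highest NK library, suffix 8, had 21.8%. UMIs of a 3′ assay do not grow with gene length and were not divided by it.

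The rest of the pathway was read from 34 listed genes, of which 29 had values. Among ligands, Ifng was at 268 CPM in T and 127 CPM in NK cells and at 0.414 CPM in macrophages. It was also at 40.6 CPM in the neutrophil gate, 41.5 CPM in dendritic and 25.8 CPM in pDC barcodes. Those gates did not exclude Cd3e or Ncr1, and their barcodes with at least 3 UMIs of Csf1r and Adgre1 all held Cd3e or Ncr1. The 6 T cell markers summed to 673, 307 and 461 CPM in those gates and the 4 NK markers to 1048, 598 and 547 CPM. The Ifng levels of those gates thus cannot be assigned to neutrophils, dendritic cells or pDC, and the part of lymphocyte transcripts in them was not tested. Ifnb1 gave 67 UMIs in all macrophages, at 3.13 CPM in Ly6c2-only (2.08 to 4.53) and 0.605 CPM in C1qa-only macrophages. Of the 28 UMIs in Ly6c2-only macrophages, 21 came from suffix 6, where the level was 6.89 CPM, and without suffix 6 the levels were 1.19 and 0.653 CPM. The neutrophil gate held 26 UMIs, at 2.28 CPM against 1.16 CPM in all macrophages. Ifnb1 had no UMI in NK, dendritic or pDC barcodes, where 3 counts would be 0.885, 1.10 and 2.04 CPM. Ifna2, Ifna4, Ifna5, Mx1 and Mx2 were not found by symbol among the genes of the matrix, so their levels could not be read.

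Between Ly6c2-only and C1qa-only macrophages, none of the 4 receptor genes was 2-fold apart, with folds from 1.19 for Ifngr2 to 1.94 for Ifnar1. Of 6 signalling genes, Jak2 (2.97-fold) and Socs1 (2.85-fold), a feedback inhibitor of JAK kinases, passed 2-fold, and Stat2 was at 1.73. Of 16 further induced genes tested, 6 passed 2-fold, namely Oas1a, Ifit3b, Ifi27l2a, Gbp4, Gbp9 and Ciita, against 5.08% of all genes. Without suffix 6, which was left out after the data were seen, 3 of 14 tested did (Ifi27l2a, Gbp9 and Ciita), against 5.07% of all genes, and Oas1a, Ifit3b and Gbp4 stood at 1.57, 1.81 and 1.76, with Ifit3b then below the minimum of 10 CPM. Jak2 and Socs1 remained past 2-fold without suffix 6, at 2.63 and 2.48. Cxcl9 lay the other way, at 682 against 912 CPM, or 0.748-fold. In suffix 6 macrophages, Stat2 and Socs1 were 2.16- and 2.24-fold higher than in the others, and 4 of 16 further induced genes passed 2-fold, Oas1a, Oas1g, Ifit3b and Gbp4, against 1.79% of all genes. Cxcl9 and Cxcl10 lay the other way in suffix 6, at 0.518 (0.501 to 0.536) and 0.783 of the level in the other libraries. They were also lower within C1qa-only (0.629 and 0.575) and within Ly6c2-only macrophages (0.638 and 0.699).

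Of the 4 receptor genes, Ifnar2 and Ifngr2 were at least 2-fold lower in NK and T cells than in macrophages, against the 19.9 and 17.9% of all genes given above. Ifngr1 alone was 2-fold higher in each, against 13.7 and 16.8%. Ifngr1 was 5.26-fold higher in NK and 3.24-fold higher in T cells than in macrophages, and Ifngr2, the other chain of the IFN-γ receptor, was at 7.67 CPM in NK, 17.8 CPM in T cells and 103 CPM in macrophages. Ifnar2 was at 0.277-fold in NK and 0.260-fold in T cells, and Ifnar1, its partner chain, at 1.36- and 1.40-fold. Cxcl9 and Cxcl10 were at 0.0346 and 0.208 of the macrophage level in NK cells.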

How the data were processed

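CD45 positive cells of 6 tumors, 3 per label group, were profiled with 10x 3′ chemistry. The authors deposited raw UMI counts, not normalized, as 1 matrix. The submitters' processing notes name Cell Ranger 1.2, Seurat 3.1.5, R 4.0.1 and the build mm10. The filter behind the matrix is not given in the sources used here; no barcode held more than 9.99% mitochondrial UMIs or fewer than 280 genes. Counting on 3′ ends, and to 1 of several near copies, can shift UMIs between paralogs. All columns were used.

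Suffixes could not be mapped to tumors or treatments, so the planned edgeR comparison was not run and no barcode was given a treatment. The 38 members, lists, gates and tests were chosen with earlier results of these data known. Barcodes entered a gate only if they passed exactly 1; no doublet caller was run. Gates were macrophage, at least 3 UMIs of Csf1r and Adgre1, no Cd3e and no Ncr1; neutrophil, at least 5 of S100a9; dendritic, at least 1 of Flt3 and at most 1 of Siglech; pDC, at least 2 of Siglech; NK, at least 1 of Ncr1, no Cd3e; T, at least 1 of Cd3e, no Ncr1; and B, at least 2 of Cd79a, with at most 1 UMI of Csf1r and Adgre1 in NK and T.

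CPM were sums over barcodes per 1e+06 UMIs. A gene was tested for a fold with at least 10 CPM in either group, and called at 2-fold. Intervals were at 95%, Poisson for levels, Clopper-Pearson for shares and conditional binomial for folds. Correlations used barcodes thinned to 5000 UMIs (seed 1) with Python 3.11.15, numpy 2.4.6, scipy 1.17.1 and pandas 2.3.3, and the code was tested on simulated data. Named genes were the 38 members, 34 listed pathway genes and the 5 other genes most like each family, apart from 1 that is not reported here. Alternatives were overlapping gates, a macrophage gate of 6, a stricter barcode filter, another denominator, medians over libraries, another split of macrophages, other thinning, families and correlation, and each library left out.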

Additional observations from a re-analysis of the deposited data

Results flagged for a closer look

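Of 30 family sums examined over the 6 libraries in 5 gates or states, 8 had a library whose gap to the next, divided by the whole range, was above Dixon's critical value for 6 samples. Of the 38 members examined in macrophages, 27 did. Chance alone would do so for about 5% of such groups, but of all 7436 genes with at least 10 CPM in macrophages, 10.8% had a library apart, and 3.17% had suffix 6 apart as the highest. Members share cells and are not independent, and for the members and sums the library was suffix 6, as the highest, each time. Its share of Ly6c2-only macrophages (40.7%) and its monocyte markers were the highest as well, and their part in the gaps was not tested.

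The Ifit/Oas sum of suffix 6 was 1020.4 CPM in macrophages, against a median of 394 over libraries, and 637 CPM in C1qa-only macrophages, against 343. The sensor sum was 1011 CPM in macrophages, 620.3 CPM in C1qa-only and 1397 CPM in Ly6c2-only macrophages. The sum of the factors was 1234 CPM in macrophages and 823 CPM in C1qa-only macrophages, and that of all 38 members 12634.5 CPM in macrophages. In NK and T cells no family sum had a library apart by this measure.

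In macrophages of suffix 6, the Ifit/Oas genes apart were Ifit1 at 159, Ifit2 at 208, Ifit3 at 94.9, Oasl1 at 210.3, Oasl2 at 191 and Oas3 at 127 CPM. The effectors apart were Isg15 at 619.6, Isg20 at 61.3, Rsad2 at 767, Cmpk2 at 84.1, Usp18 at 89.5, Herc6 at 88.0, Ifi44 at 418, Xaf1 at 112, Rtp4 at 229, Phf11d at 64.5, Slfn5 at 321, Parp14 at 209, Trim30a at 283 and Bst2 at 302 CPM. The sensors were Ifih1 at 87.2, Ddx58 at 69.2, Dhx58 at 110.0 and Ifi204 at 441 CPM. Irf1 stood at 614 and Irf7 at 556 CPM. Of the Gbp/Irg genes only Gbp7, at 423 CPM, was apart. Usp18 had the widest gap, 0.943 of its range, with the other libraries near its median of 40.5 CPM.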

How the results depend on the processing

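No paired analysis was possible because treatments could not be compared, as the matrix columns carry no replicate number and no treatment. Macrophage states, both present in each library, were compared within libraries. Of 156 values recomputed under alternatives, 90 lay within the interval of the reported value (for co-variation, within 1 SD over libraries; for a count of genes, within 1.5 times) and 66 moved beyond it, none across a fold of 1. Counting intervals at these depths are narrow, so small shifts count as moved, and the cause was not tested. With overlapping gates the macrophage sums were 8362 (all members), 508 (Ifit/Oas) and 1862 CPM (Gbp/Irg), and the Ifit/Oas share 21.5%. With a macrophage gate of at least 6, they were 7698, 441, 1795 CPM and 19.7%, and the Ifit/Oas fold between states 2.58. With at most 5% mitochondrial UMIs and at least 1000 genes, all members gave 8499 CPM, Ifit/Oas 521 CPM and a share of 22.3%, and the Gbp/Irg fold was 1.58. Without mitochondrial and ribosomal protein genes in the denominator, the sums were 9649.5, 572 and 2153 CPM and the folds 2.37 and 1.42. As medians of library values, the sums were 7551, 394 and 1751 CPM, the folds 1.86 and 1.28, and the shares 20.6% in macrophages and 20.3% in NK cells. With barcodes split by the larger of C1qa and Ly6c2, the folds were 2.13 and 1.44. The excess of co-variation within families was 0.0761 at 2000 UMIs, 0.0988 with wide families and 0.139 by Pearson's r. Without Ifitm3, chosen after seeing the data, all members gave 5506 CPM.

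Leaving out 1 library at a time gave 7388 to 8524 CPM for all members, 391 to 524 CPM for Ifit/Oas and 1682 to 1886 CPM for Gbp/Irg. The Ifit/Oas fold was 2.03 to 2.75, the Gbp/Irg fold 1.33 to 1.57, the macrophage share 18.9 to 22.3% and the NK share 17.1 to 20.3%. The excess of co-variation was 0.112 to 0.118. Counts of members, recomputed after seeing the data, were 16 to 26 between macrophage states, 26 to 29 in NK, 22 to 23 in T, 8 to 21 in dendritic and 7 to 21 in pDC barcodes. The lowest counts between macrophage states, in dendritic and in pDC barcodes came without suffix 6, and it also gave the lowest sums and folds. Small gates of 87 and 149 barcodes limit what can be seen in pDC and dendritic cells.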
